A study of Rattus norvegicus with 62 samples.

Results

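The genes described here encode matricellular proteins, followed in cardiac muscle of male Wistar rats after rosiglitazone: the CCN proteins Ccn1, Ccn2 and Ccn3, the thrombospondins Thbs1, Thbs2 and Thbs4, and periostin (Postn), osteopontin (Spp1), SPARC (Sparc) and tenascin C (Tnc). Every probe set to which the array annotation gave 1 gene, that gene being a member, was taken, which gave 10 of 31099 probe sets and 9 of the 10 genes. Thbs1 had no probe set with 1 listed gene and was not analysed here. The genes were selected on the Ccn2 difference from vehicle, which has opposite signs at 6 and 336 h. Values at 6 and 336 h are therefore given as a description with no test, for every member and both doses, and tests were run at 24 and 168 h.

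Rosiglitazone is a thiazolidinedione, an agonist of the nuclear receptor PPAR gamma. Rats were given vehicle (0 mg/kg), 10 mg/kg or 80 mg/kg of it by mouth each day during 14 days, and hearts were taken 6, 24, 168 or 336 h after the last dose. The 12 dose-by-time groups held 62 arrays: vehicle 4, 6, 5 and 5 arrays at the successive times, 10 mg/kg 5, 5, 5 and 6, and 80 mg/kg 5, 5, 6 and 5. All animals were male and of the Wistar strain, and the labels give neither an age nor whether each array is a separate animal, so errors and p-values measure the spread between these arrays, which may be technical.

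Matricellular proteins are secreted into the extracellular matrix but act mainly as signals, binding integrins, other receptors, growth factors and collagen rather than bearing load. In the adult heart most are made at low levels by fibroblasts, endothelial cells and cardiomyocytes, and they are known for being induced by injury, pressure overload and fibrosis. CCN2, also called connective tissue growth factor, and CCN1 are textbook targets of the YAP and TEAD transcription factors, and CCN2 is also induced by TGF beta. In whole cardiac muscle, fewer cells of a type and less RNA per cell cannot be told apart.

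Promoter sequences are shown for the members with the largest differences from vehicle at 6 or 336 h, with the core letters of a TEAD motif, GGAATG or CATTCC on the other strand, marked in them because Ccn1 and Ccn2 are known TEAD targets. Each is the 250 bases before the RefSeq start site on the GRCr8 rat assembly, read 5′ to 3′ on the strand of the gene, with the motif letters in capitals. Ccn2 lies at chr1:22624615-22624864, Ccn1 at chr2:237225690-237225939 and Thbs4 at chr2:25760346-25760595, all 3 on the minus strand.
Ccn2: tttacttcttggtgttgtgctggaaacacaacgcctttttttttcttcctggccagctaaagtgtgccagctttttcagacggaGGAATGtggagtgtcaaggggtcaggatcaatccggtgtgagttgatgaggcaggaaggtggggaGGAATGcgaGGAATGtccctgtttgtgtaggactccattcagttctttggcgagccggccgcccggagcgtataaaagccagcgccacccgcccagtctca
Ccn1: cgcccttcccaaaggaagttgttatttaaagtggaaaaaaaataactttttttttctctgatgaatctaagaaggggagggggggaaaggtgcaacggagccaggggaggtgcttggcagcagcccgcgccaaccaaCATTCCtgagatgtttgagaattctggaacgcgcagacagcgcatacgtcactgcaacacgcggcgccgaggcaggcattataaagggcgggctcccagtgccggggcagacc
Thbs4: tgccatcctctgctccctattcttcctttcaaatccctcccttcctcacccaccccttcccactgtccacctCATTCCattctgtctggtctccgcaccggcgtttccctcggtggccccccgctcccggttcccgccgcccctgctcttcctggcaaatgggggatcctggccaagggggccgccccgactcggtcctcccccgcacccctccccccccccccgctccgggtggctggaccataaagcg
The Ccn2 window held the letters 3 times, all in the forward direction, at −166 to −161, −101 to −96 and −92 to −87 from the start site. The Ccn1 window held them at −113 to −108 and the Thbs4 window at −178 to −173, both in the reverse direction. Promoters were listed for 8 of the 10 members, and 5 of these 8 held the letters, the others being Thbs1 and Sparc with 1 match each. Among 33469 rat promoters of the same length, 12.1% held at least 1 match and 0.0807%, 27 promoters, held at least 3. Since the letters were chosen because of Ccn1 and Ccn2, no enrichment among the members is read from these shares. The letters of 3 other motifs were searched in the same 8 promoters on both strands. The AP-1 letters TGANTCA were in 0 of 8, against 6.34% of all promoters. The SMAD letters CAGACA or TGTCTG were in 4 of 8 (Ccn1, Thbs4, Sparc and Tnc, 1 match each, with 0 in Ccn2), against 17.2%, and the TATA letters TATAAA or TTTATA in 5 of 8, Ccn1 and Ccn2 among them, against 12.9%. Only these exact letters were counted. The Ccn2 window holds CAGACG just before its first GGAATG, which differs from CAGACA in the last letter. The 0 therefore does not show that the window lacks a SMAD element. A match describes letters and is neither a site nor a cause.

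Of the 10 member probe sets, 8 from 7 genes passed the filter on dim probe sets (mean at or above 5.03, log2) and were tested. Spp1 and Tnc did not pass. Ccn1 and Thbs4 passed but lay near the filter, with 41 and 43 of 62 arrays above its level, whereas Ccn2, Ccn3, Thbs2, Postn and both Sparc probe sets were above it in 62 of 62. All levels below are log2 of quantile normalized signal, and differences are between group means of that quantity, with the standard error (SE) from a limma fit of all 62 arrays. Levels of different probe sets were not compared, since probes differ in brightness.

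Several properties of the arrays bear on these values. The deposited median signal ran from 31.1 to 86.9 between arrays, and rank correlations within groups from 0.885 to 0.952. Myl7, the atrial myosin light chain, stood at 11.2 or above in 9 arrays and at 9.32 or below in 53, with no array between. The 9 high-Myl7 arrays were 1 vehicle, 3 10 mg/kg and 2 80 mg/kg arrays at 6 h and 3 80 mg/kg arrays at 24 h. The arrays also formed 3 clusters along the first principal components of all tested probe sets, of 21, 20 and 21 arrays. The third held all 16 arrays of 336 h and 5 of other times, and in the second the hexokinase control probe sets had a 3′ minus 5′ difference of 2.09 to 6.08 (log2), against 1.38 to 1.97 in the first. The groups were unevenly spread over them at 24 h, where 5 of 6 vehicle arrays but 1 of 5 80 mg/kg arrays were in the second cluster, and 0 vehicle but 2 80 mg/kg arrays in the third. Of 6 cardiomyocyte markers 5 were measured, and none of them was below the filter level.

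Ccn2, the profibrotic CCN protein, was lower than vehicle 6 h after the last dose of rosiglitazone and higher than vehicle at 336 h. Vehicle arrays at 6 h read 9.96, 9.74, 9.22 and 9.46 (mean 9.60 ± 0.32, SD, n = 4). With 80 mg/kg they read 8.85, 9.31, 8.83, 9.09 and 8.69 (mean 8.96 ± 0.25, SD, n = 5). All 5 treated arrays lay below the vehicle mean, and the ranges overlapped through 1 treated array, at 9.31, above the lowest vehicle array, at 9.22. The difference was −0.64 (SE 0.20), 1.56-fold lower. At 10 mg/kg the arrays read 8.68, 9.46, 9.25, 9.25 and 9.50, a difference of −0.37 (SE 0.20) with ranges that overlapped. The dose groups at 6 h differed by −0.27 (SE 0.19) for 80 against 10 mg/kg. On the deposited scale, where tested probe sets as a whole were shifted by a median of 0.37 between 80 mg/kg and vehicle, the 6 h difference was −0.25, and that between the doses was 0.13, in the opposite direction. Between the doses tested probe sets as a whole were shifted by a median of 0.38 on that scale, more than Ccn2. Without the 9 high-Myl7 arrays the differences from vehicle were −0.76 at 80 mg/kg and −0.16 at 10 mg/kg.

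At 336 h the order of the groups was the reverse. Vehicle arrays read 9.47, 8.51, 8.78, 9.12 and 9.01 (mean 8.98 ± 0.36, SD, n = 5), and 80 mg/kg arrays 10.10, 10.27, 9.85, 9.64 and 9.91 (mean 9.95 ± 0.24, SD, n = 5). Every 80 mg/kg array lay above every vehicle array, which was true in that direction of 1.28% of all tested probe sets, and since this contrast chose the members nothing is read from it. The difference was 0.98 (SE 0.19), 1.97-fold higher. At 10 mg/kg the 6 arrays ran from 9.01 to 9.84 with a median of 9.55, 0.48 (SE 0.18) above vehicle, and the ranges overlapped. For 80 against 10 mg/kg the difference was 0.50 (SE 0.18), also with overlap. All 16 arrays of this time were in 1 cluster and none was a high-Myl7 array. The vehicle level itself was lower at 336 h (8.98) than at 6 h (9.60), 24 h (9.58) or 168 h (9.35), while that at 80 mg/kg was 8.96, 9.46, 9.70 and 9.95 at the successive times. Comparisons of 336 h with earlier times cannot be told apart from the array clusters.

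**Figure D1:**
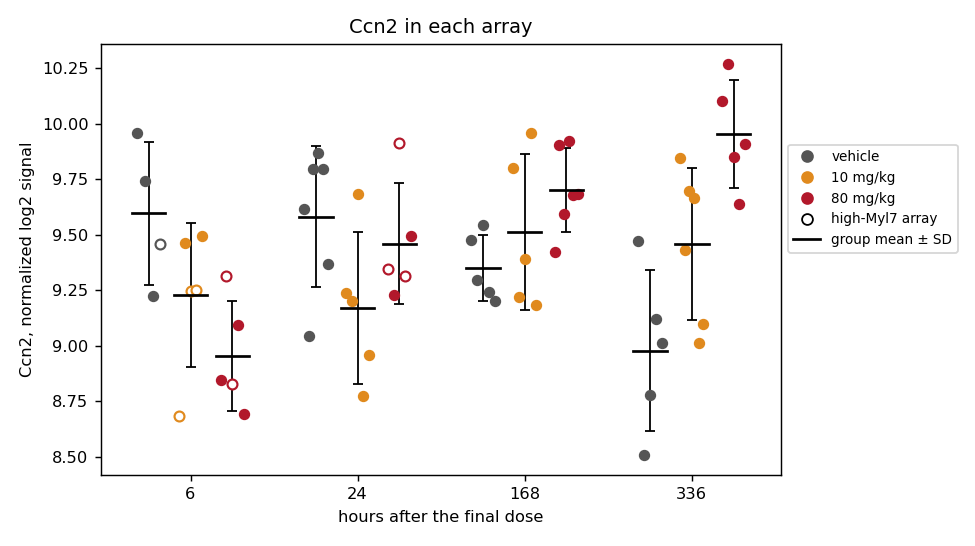
Normalized log2 signal of Ccn2 in each of the 62 arrays against hours after the last dose, by dose, with group means and SD as black lines; open circles are the 9 high-Myl7 arrays. The 80 mg/kg arrays sit below the vehicle mean at 6 h and, from 9.64 to 10.27, above all vehicle arrays at 336 h, where the highest reads 9.47.

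At 24 and 168 h, times that did not choose the members, Ccn2 did not pass the test. At 24 h the 6 vehicle arrays ran from 9.04 to 9.87 with a median of 9.71, and those at 80 mg/kg read 9.35, 9.23, 9.91, 9.31 and 9.49. The ranges overlapped, and the difference was −0.12 (SE 0.18, 95% interval −0.48 to 0.23, limma adjusted p = 0.838). The 10 mg/kg arrays read 9.24, 9.20, 9.68, 8.78 and 8.96, and 4 of 5 lay below the vehicle mean. That difference was −0.41 (SE 0.18, interval −0.77 to −0.06), with an unadjusted p of 0.0243 and a limma adjusted p of 0.848. At 168 h the vehicle arrays read 9.47, 9.29, 9.54, 9.24 and 9.20, and the 6 arrays of 80 mg/kg ran from 9.42 to 9.92 with a median of 9.68. All 6 lay above the vehicle mean though the ranges overlapped, and the difference was 0.35 (SE 0.18, interval −0.01 to 0.70, limma adjusted p = 0.915). The 10 mg/kg arrays at 168 h read 9.80, 9.22, 9.39, 9.96 and 9.18, 0.16 (SE 0.19) above vehicle, with a limma adjusted p of 1. Within the array clusters the 80 mg/kg difference was uneven. At 168 h it was 0.59 in the first cluster (3 arrays against 3), 0.08 in the second (2 against 1) and 0.05 in the third (1 against 1). At 24 h it was 0.24 in the first (2 against 1) and −0.37 in the second (1 against 5). On the deposited scale it was −0.50 at 24 h and 0.14 at 168 h, a scale on which tested probe sets as a whole had median shifts of −0.30 and −0.21.

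Whether the effect itself moved between these times was tested directly. From 24 to 168 h the 80 mg/kg effect on Ccn2 differed by 0.47 (SE 0.25, interval −0.03 to 0.97) with a limma adjusted p of 0.716. For 10 mg/kg the corresponding value was 0.57 (SE 0.26, interval 0.06 to 1.08), with an unadjusted p of 0.0305 and a limma adjusted p of 0.937. Both were positive and neither passed.

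Over the 12 groups the mean Ccn2 level ran from 8.96 (80 mg/kg, 6 h) and 8.98 (vehicle, 336 h) through 9.17 (10 mg/kg, 24 h), 9.23 (10 mg/kg, 6 h), 9.35 (vehicle, 168 h), 9.46 (10 mg/kg, 336 h and 80 mg/kg, 24 h), 9.51 (10 mg/kg, 168 h), 9.58 (vehicle, 24 h), 9.60 (vehicle, 6 h) and 9.70 (80 mg/kg, 168 h) to 9.95 (80 mg/kg, 336 h). The gap between neighbours in this order was smaller than the larger SD of the pair in every case but the last, where it was 0.25 against 0.24. The genes whose 12 group means followed those of Ccn2 most closely were Irf2, Slc45a4, Akip1, Matk and Tmod4, with correlations of 0.86, 0.86, 0.86, 0.83 and 0.83 over 12 groups. Within groups, over the 62 arrays, the same genes correlated with Ccn2 at 0.04, 0.29, 0.06, −0.09 and −0.40.

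Ccn1, an integrin-binding immediate early gene product, was the CCN member with the widest scatter. At 6 h the vehicle arrays read 4.48, 4.76, 4.48 and 5.03, at or about the filter level, and the 80 mg/kg arrays 6.91, 5.94, 4.25, 7.32 and 7.49. Of the 5 treated arrays 4 lay above all vehicle arrays and 1, a high-Myl7 array at 4.25, below them. The difference was 1.70 (SE 0.74), in the direction opposite to that of Ccn2 at this time. Without the high-Myl7 arrays it was 2.67, and since all 4 vehicle arrays lay in the dim range its size is uncertain. At 10 mg/kg the arrays read 4.60, 5.48, 4.56, 7.15 and 4.71, 0.61 (SE 0.74) above vehicle, and 0.15 above it without the array at 7.15. At 336 h the 80 mg/kg difference was 0.05 (SE 0.69) and the 10 mg/kg difference −0.66 (SE 0.66), the first being 0.70 without replicate 4 of 80 mg/kg.

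Neither dose passed the test for Ccn1 at the later tested times. The 80 mg/kg difference was 0.06 (SE 0.66) at 24 h, or −0.59 without the 3 high-Myl7 arrays of that group, and 0.49 (SE 0.66) at 168 h, and the 95% interval at 168 h ran from −0.85 to 1.82. In 10 mg/kg hearts the level was 1.29 (SE 0.69) higher at 168 than at 24 h, with a limma adjusted p of 1. Group SDs of Ccn1 ran from 0.26 to 1.66, so differences below about the size of these intervals were not detectable.

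Ccn3, a CCN protein known for opposing CCN2 in cell culture, read 5.15, 6.62, 6.05 and 6.65 in vehicle at 6 h. At 80 mg/kg it read 6.50, 7.18, 6.31, 6.46 and 6.76, and at 10 mg/kg 6.65, 6.69, 6.66, 6.92 and 6.53. The differences were 0.53 (SE 0.24) and 0.57 (SE 0.24), with ranges that overlapped and 1 vehicle array, at 5.15, well below the others. That array had the highest actin 3′ minus 5′ difference of the vehicle arrays at 6 h, 1.68 (log2), and without it the Ccn3 differences were 0.20 and 0.25. At 336 h the Ccn3 differences were 0.08 (SE 0.22) at 80 mg/kg and 0.03 (SE 0.21) at 10 mg/kg. At 24 and 168 h its 80 mg/kg differences were −0.22 and −0.08 (both SE 0.21), with limma adjusted p-values of 0.742 and 1. Without the 3 high-Myl7 arrays of 80 mg/kg the 24 h difference was 0.13.

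**Figure D2:**
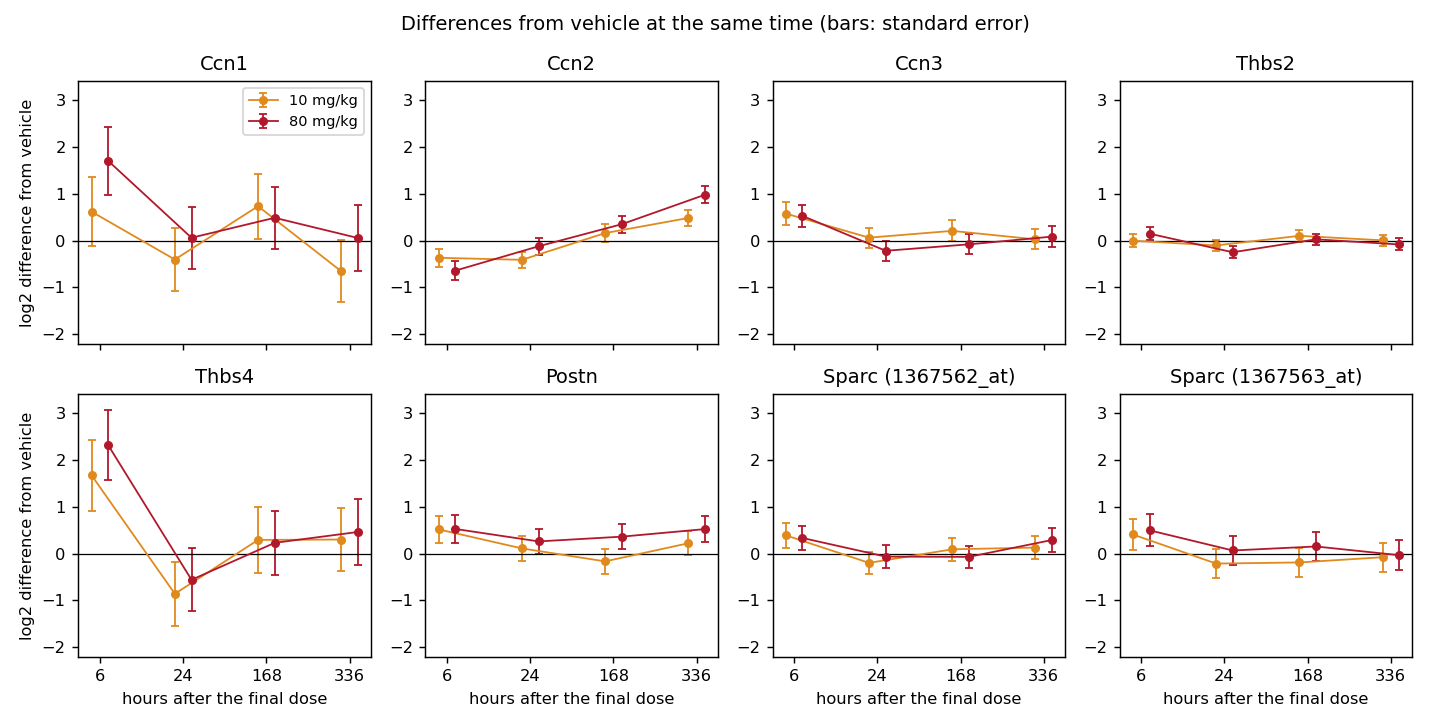
Difference from vehicle at the same time (log2) of the 8 tested member probe sets against hours after the last dose, for 10 and 80 mg/kg, with bars of 1 SE. Ccn2 runs from −0.64 at 6 h to 0.98 at 336 h at 80 mg/kg, while Thbs4 and Ccn1 are highest at 6 h, at 2.31 and 1.70, with wide bars; both doses share the vehicle arrays.

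Thbs4, the thrombospondin known for its induction in stressed hearts, had the largest difference of the members at 6 h. Vehicle arrays read 4.81, 3.08, 2.84 and 3.19, all below the filter level, and 80 mg/kg arrays 5.71, 6.50, 5.24, 5.41 and 6.07. Every treated array lay above every vehicle array, which was so for 0.918% of all tested probe sets. The difference was 2.31 (SE 0.75). At 10 mg/kg the arrays read 3.70, 5.31, 5.90, 6.36 and 4.45, 1.67 (SE 0.75) above vehicle, with overlap. Because the vehicle values are in the dim range, where log2 signals scatter widely, the fold is uncertain.

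That low vehicle level was not seen at other times. Thbs4 in vehicle averaged 5.71 at 24 h, 5.36 at 168 h and 4.93 at 336 h, against 3.48 at 6 h, although single arrays as low as 2.28 occurred at other times too. Its 80 mg/kg difference was −0.56 (SE 0.68, limma adjusted p = 0.797) at 24 h and 0.23 (SE 0.68, limma adjusted p = 1) at 168 h. Of the 5 arrays of 80 mg/kg at 24 h 3 were high-Myl7 arrays, against 0 of 6 in vehicle, and without them the difference was −1.95. Without 1 other array of 80 mg/kg, replicate 6 at 2.49, it was 0.11. Vehicle at 24 h held an array as low, replicate 2 at 2.47, which stayed in for that value. Leaving out the vehicle array instead would move the difference the other way, further below vehicle. At 336 h the differences were 0.46 (SE 0.71) at 80 mg/kg and 0.30 (SE 0.68) at 10 mg/kg. Both turned negative, to −0.20 and −0.36, without the vehicle array at 2.28.

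Thbs2, an inhibitor of angiogenesis, was the steadiest member, with group SDs of 0.14 to 0.30. At 24 h the 6 vehicle arrays ran from 7.11 to 7.55 with a median of 7.21, and the 80 mg/kg arrays read 6.89, 6.82, 7.04, 7.24 and 7.17. All 5 treated arrays lay below the vehicle mean and the ranges overlapped. The difference was −0.25 (SE 0.12, interval −0.50 to −0.0027), with an unadjusted p of 0.0476 and a limma adjusted p of 0.445. Within clusters it was −0.70 in the first (2 arrays against 1) and 0.01 in the second (1 against 5), where most vehicle arrays lay. Thbs2 in vehicle was also 0.34 lower at 168 than at 24 h (−0.34, SE 0.12, unadjusted p = 0.00869, limma adjusted p = 0.368). At 6 h its 80 mg/kg difference was 0.15 (SE 0.14), and at 336 h −0.08 (SE 0.13).

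Periostin, a marker of activated fibroblasts, read 7.06, 7.66, 7.51 and 6.00 in vehicle at 6 h and 7.66, 8.09, 7.48, 7.26 and 7.40 at 80 mg/kg. The difference was 0.52 (SE 0.29), and the vehicle array at 6.00 was a high-Myl7 array. Without the high-Myl7 arrays the difference was 0.04 at 80 mg/kg and −0.18 at 10 mg/kg, where it had been 0.51. At 168 h the vehicle arrays read 7.03, 6.70, 7.44, 6.68 and 6.08, and the 6 arrays of 80 mg/kg ran from 6.89 to 7.41 with a median of 7.17. All 6 lay above the vehicle mean, and the difference of 0.36 (SE 0.26, limma adjusted p = 1) did not pass. It was 0.19 without the vehicle array at 6.08, and 0.70, 0.04 and −0.25 within the successive clusters. For 80 against 10 mg/kg at 168 h it was 0.53 (SE 0.26, unadjusted p = 0.0482, limma adjusted p = 1). In 10 mg/kg hearts Postn was lower by 0.71 at 168 than at 24 h (−0.71, SE 0.27, unadjusted p = 0.0118, limma adjusted p = 1). At 336 h it read 5.93, 6.54, 6.77, 5.99 and 6.17 in vehicle and 7.43, 6.92, 6.23, 6.02 and 7.42 at 80 mg/kg, a difference of 0.52 (SE 0.27) carried by 3 of 5 arrays.

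SPARC, a collagen-binding protein that is abundant in heart, had a pair of probe sets, 1367562_at and 1367563_at. At 6 h the first read 11.65, 11.71, 11.52 and 9.76 in vehicle and 11.42, 11.86, 11.65, 11.60 and 10.93 at 80 mg/kg, a difference of 0.33 (SE 0.26). The vehicle array at 9.76 was the high-Myl7 array. Without it the difference was −0.13, and without all high-Myl7 arrays −0.31, so the sign in the first probe set rested on 1 array. The second probe set averaged 10.53 in vehicle and 11.02 at 80 mg/kg at 6 h, and 10.72 and 10.96 without the high-Myl7 arrays. Its 80 mg/kg difference at 6 h was 0.22 in the first cluster (2 arrays against 3) and 0.33 in the second (3 against 1). At 24 and 168 h the 80 mg/kg differences of the first probe set were −0.06 and −0.07 (SE 0.24) and those of the second 0.07 and 0.15 (SE 0.30), and none passed. At 336 h the 80 mg/kg difference was 0.29 in the first probe set and −0.03 in the second.

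The probe sets of Sparc diverged between array clusters. In the second, 1367563_at, the 21 arrays of the first cluster read 9.96 to 10.88, the 20 of the second 10.84 to 11.47, and the 21 of the third 11.52 to 12.32, so that the first and second overlapped slightly and the third stood above both. The third cluster includes all arrays of 336 h, which read 11.52 to 12.28, and its 5 arrays of other times, which read 11.96 to 12.32. In 1367562_at the ranges of the clusters overlapped broadly, from 9.76 to 11.77, 11.24 to 12.11 and 11.49 to 12.31. The clusters were made from all tested probe sets, these included, so this is a description, and the part of array processing in it was not tested. Level differences of Sparc between 336 h and earlier times, such as vehicle at 12.04 against 10.53 at 6 h for 1367563_at, cannot be told apart from the clusters.

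**Figure D3:**
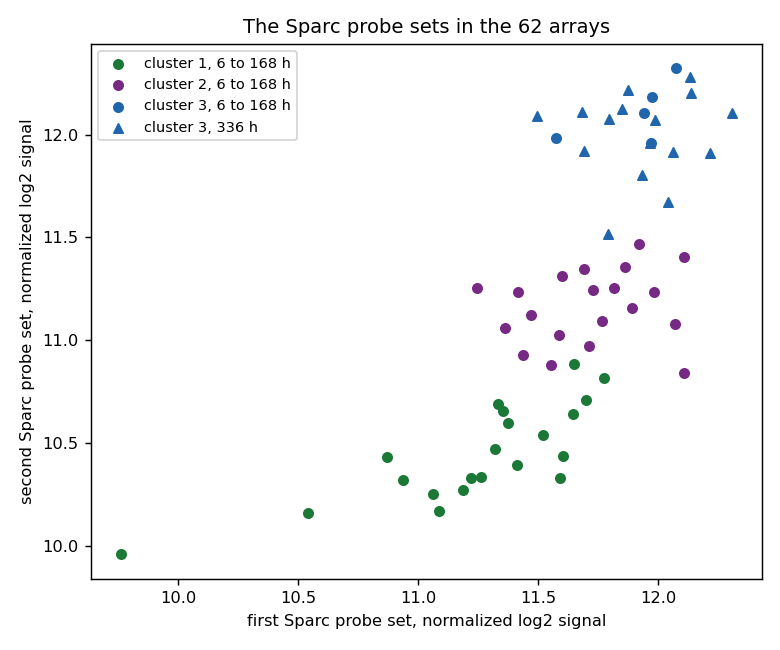
Normalized log2 signals of the first Sparc probe set (1367562_at, x axis) and the second (1367563_at, y axis) in the 62 arrays, coloured by array cluster, with triangles for 336 h. On the second probe set the third cluster, from 11.52 to 12.32, lies above the others, which meet at 10.84 to 10.88, with 5 arrays of earlier times among the 336 h arrays.

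Osteopontin (Spp1), a cytokine-like matrix protein of macrophages and injured tissue, and tenascin C (Tnc), a matrix protein of remodelling tissue, were dim. Spp1 averaged 2.95 over all arrays with 11 of 62 above the filter level, and single arrays reached 6.19. Tnc averaged 3.90 with 8 of 62 arrays above that level, and its highest array read 5.65. Their group means, from 2.01 to 3.57 for Spp1 and from 3.23 to 4.45 for Tnc, have no interpretable order.

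**Figure D4:**
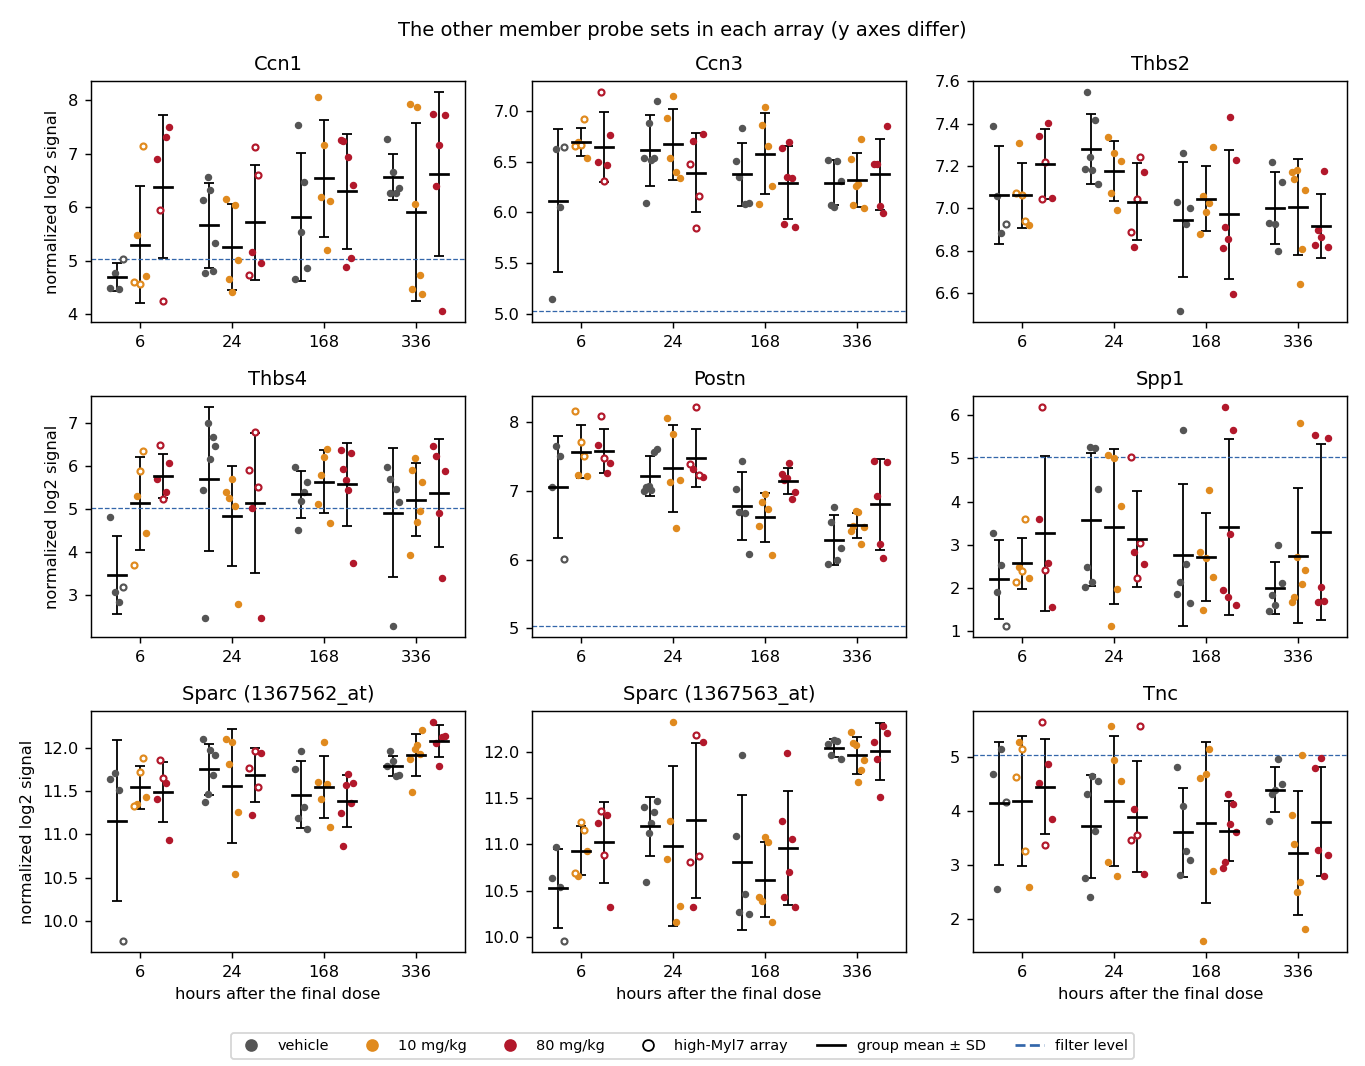
Normalized log2 signal of the other 9 member probe sets in each array against hours after the last dose, with group means and SD, open circles for high-Myl7 arrays and a dashed line at the filter level of 5.03 (y axes differ). Thbs4 is low in all 4 vehicle arrays of 6 h, at 2.84 to 4.81, and 1367563_at of Sparc is high in all groups of 336 h.

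Counted together, no member was called by limma in any of the 11 tested contrasts. For 80 mg/kg against vehicle 0 of 8 member probe sets were called at 24 h and 0 of 8 at 168 h, where limma called 0.14% and 0.0537% of all 18625 tested probe sets. At an unadjusted p under 0.05 the counts were 1 (Thbs2) and 0, against 11.1% and 5.44% of all tested. For 10 mg/kg against vehicle 0 of 8 were called at either time, where limma called 0% of all, and 1 (Ccn2) and 0 passed unadjusted, against 5.84% and 3.86%. For 80 against 10 mg/kg 0 of 8 were called, beside 0.0107% and 0.0376% of all, and 0 and 1 (Postn) passed unadjusted, against 3.74% and 4.73%.

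Between 24 and 168 h, limma called 0 of 8 members in vehicle, 10 mg/kg and 80 mg/kg hearts, beside 0%, 0.00537% and 0.0161% of all tested probe sets. The unadjusted counts were 1 (Thbs2), 1 (Postn) and 0, against 11.4%, 4.02% and 5.56%. For the change of the 80 and 10 mg/kg effects between those times 0 of 8 were called, beside 0.00537% and 0% of all, and 0 and 1 (Ccn2) passed unadjusted, against 7.08% and 5%. Groups that did not overlap were also counted against vehicle. At 80 mg/kg there was 1 such member of 8 at 6 h (Thbs4) and 1 at 336 h (Ccn2), beside 1.68% and 2.52% of all tested probe sets in either direction, and 0 at 24 and 168 h, beside 1.08% and 0.612%. At 10 mg/kg there were 0 of 8 at every time, beside 1.15%, 0.43%, 0.403% and 0.666% at 6, 24, 168 and 336 h.

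In direction, 7 of the 8 member probe sets were above vehicle at 80 mg/kg at 6 h, all but Ccn2, with a median difference of 0.51 against 0.01 for all tested. The corresponding counts were 3 of 8 at 24 h (median −0.09), 6 of 8 at 168 h (0.19) and 6 of 8 at 336 h (0.19). All members at 6 h are set against the same 4 vehicle arrays, of which 1 was a high-Myl7 array. Of these 4, 3 were in the first array cluster and 1 in the second, against 2 and 3 arrays of 80 mg/kg. Within the second cluster (3 arrays against 1) Ccn3, Postn and Sparc 1367562_at differed by 0.09, 0.02 and −0.08. There Ccn1, Thbs2, Thbs4 and Sparc 1367563_at differed by 1.96, 0.20, 2.80 and 0.33, and Ccn2 by −0.66.

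Genes that belong to the same pathways were counted from lists chosen with earlier results of these data known. Of 20 other YAP and TEAD targets 19 were tested, and of these 10, 9, 10 and 11 were above vehicle at 80 mg/kg at 6, 24, 168 and 336 h, with medians of 0.02, −0.02, 0.04 and 0.03. Of 23 TGF beta ligands, receptors, SMADs and targets 21 were tested, and 11, 7, 11 and 12 were above vehicle, with medians of 0.03, −0.07, 0.02 and 0.05. Receptors of matricellular proteins, 15 of 17 tested, gave 9, 4, 9 and 12, with medians of 0.11, −0.16, 0.06 and 0.17. Other matricellular genes, 12 of 22 tested, gave 10, 3, 5 and 6, with medians of 0.18, −0.19, −0.02 and 0.02. Among all tested probe sets 51.9%, 45.6%, 48.4% and 48.9% were above vehicle at these times. At 24 and 168 h limma called 0 genes of any of these lists in either direction, and at an unadjusted p under 0.05 the 80 mg/kg counts at 24 and 168 h were 6 and 0 for YAP and TEAD targets, 2 and 2 for TGF beta, 1 and 2 for receptors and 3 and 1 for other matricellular genes. Of all tested probe sets 11.1% and 5.44% passed at that level at these times.

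Markers of the cells that make these proteins were set beside the Ccn2 values. The summed signal of 8 fibroblast markers, 8 of 8 measured, ran from 18604 to 21509 in vehicle and from 16813 to 23698 at 80 mg/kg at 336 h, and from 18599 to 23091 and 20474 to 23954 at 6 h. At 336 h the 80 mg/kg log2 difference was 0.30 (SE 0.13) for Col3a1, 0.22 (SE 0.21) for Col1a2 and 0.18 (SE 0.22) for Col1a1. It was 0.20 (SE 0.11) for Lum and 0.03 (SE 0.13) for Dpt. Dcn, Tcf21 and Pdgfra differed by −0.13 (SE 0.08), −0.04 (SE 0.20) and −0.02 (SE 0.10). At 336 h the sum of 5 measured atrial markers ran from 1352 to 2557 in vehicle and from 2003 to 5135 at 80 mg/kg. Its members did not move alike: the log2 difference was 1.25 (SE 0.63) for the natriuretic peptide gene Nppa and 1.45 (SE 0.96) for Sln, but 0.36 (SE 1.01) and 0.34 (SE 0.80) for the atrial light chains Myl7 and Myl4 and −0.07 (SE 0.12) for Dkk3. At the same time the sum of 5 endothelial markers ran from 2562 to 2867 in vehicle and from 2704 to 3465 at 80 mg/kg. These markers did not move alike either. The difference was 0.48 (SE 0.09) for Kdr and 0.12 (SE 0.12) for Pecam1. It was −0.03 (SE 0.13) for Egfl7, −0.08 (SE 0.31) for Vwf and −0.25 (SE 0.19) for Tie1. The sum of 7 macrophage markers ran from 1407 to 1988 in vehicle and from 1688 to 2027 at 80 mg/kg. Cardiomyocyte markers, 5 measured, ran from 64646 to 66435 in vehicle and from 62087 to 64864 at 80 mg/kg. These probe sets average from 12.7 (Ryr2) to 14.1 (Tnnt2), near the top of the signal range. Quantile normalization gives each array the same values there, which limits how far this sum can move. At 6 h the sum of 5 measured valve, tendon and cartilage markers was lower at 80 mg/kg (678 to 770) than in vehicle (793 to 905), with no overlap. The tendon transcription factor gene Scx makes up most of that sum and differed by −0.40 (SE 0.12). The differences were −0.24 (SE 0.43) for Chad and −0.12 (SE 0.56) for Tnmd, against 0.80 (SE 0.39) for Acan and 0.19 (SE 0.33) for Fmod. Of 5 adipocyte markers 4 were below the filter level. The part of these cell types in the Ccn2 differences was not tested.

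Arrays were also compared within groups, taking each array's deviation from its group mean. The 8 relations were Ccn2 with each other tested member probe set, and the Sparc probe sets with each other. That last relation joins 2 probe sets of 1 gene (r = 0.66), and counting it makes most adjusted p-values of the others somewhat smaller. Ccn2 and Thbs4 varied together over the 62 arrays (Pearson r = 0.41, permutation p = 0.00419, adjusted over 8 relations 0.0112; Spearman rho = 0.38, adjusted permutation p = 0.0147), and without the 2 arrays farthest from the Ccn2 median r was 0.31. These 2 arrays were chosen on Ccn2 alone, and the part of the dim Thbs4 arrays in the relation was not tested. Within the 3 clusters r was 0.50, −0.06 and 0.34, so the relation of Ccn2 and Thbs4 was not seen in the second. The r values within clusters were not tested, and the clusters were not compared. For Ccn2 and Ccn1 r was 0.28 (permutation p adjusted over 8 relations 0.0662; rho = 0.27, 0.0744), with 0.38, −0.35 and 0.54 within clusters. For Ccn2 and Sparc r was 0.35 with 1367562_at (adjusted permutation p = 0.0248; rho = 0.35, 0.0184) and 0.44 with 1367563_at (adjusted permutation p = 0.001; rho = 0.40, 0.00872), and without the 2 farthest arrays 0.32 and 0.41. Within the clusters r was 0.37, 0.05 and 0.17 for the first probe set and 0.35, 0.06 and 0.37 for the second. These relations too were not seen in the second cluster. Ccn3, Thbs2 and Postn had r of 0.11, 0.07 and 0.22 with Ccn2, with adjusted permutation p-values of 0.503, 0.607 and 0.164.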

How the data were processed

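RNA of 62 rat cardiac muscle samples was measured on an Affymetrix array, 1 array a sample. The authors deposited a linear intensity for each probe set and array, made with GCOS and MAS5 per the submitters' processing notes. Software versions and a genome build are not given in the sources used here. Of 31099 probe sets 57 controls were left out. Because array scales differed, log2 signals were quantile normalized, so differences are relative to other probe sets. Probe sets with a mean at or above the 40th percentile (5.03) were kept, 18625 in all. Names came from the platform annotation, with 20832 probe sets of 1 gene and 436 of several.

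A model of 12 group means was fitted to all arrays with limma 3.58.1 in R 4.3.3 (lmFit, eBayes, 50 residual degrees of freedom); p-values were two-sided, adjusted by Benjamini-Hochberg over all 18625, and called under 0.05. The 11 tested contrasts concern 24 and 168 h. The procedure was tested on simulated data. Replicate numbers were not treated as pairs in the main fit. The 52 same-number pairs had correlations of −0.26 to 0.34 (median 0.007), and 14 exceeded 0.1. The 268 other-number pairs had correlations of −0.42 to 0.36 (median −0.006), and 56 exceeded 0.1. Within-group correlations used 100000 permutations. The named genes were every member probe set, the 5 genes most like Ccn2 over group means, and up to 4 called genes of each list, of which there were none. Members and lists were chosen with earlier results of these data known. Alternatives covered scaling, filter, arrays fitted, blocks, Myl7, RNA quality, array weights and left-out arrays. The number of arrays limits the precision.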

Additional observations from a re-analysis of the deposited data

Results flagged for a closer look

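Single arrays that stood apart from their group were found in 11 of the 120 combinations of member probe set and group checked with Dixon's test, where chance gives about 1 in 20. Thbs4 had a low array in vehicle at 24 h (2.47) and 336 h (2.28), at 10 mg/kg at 24 h (2.81) and at 80 mg/kg at 168 h (3.75), all under the filter level. Spp1, which is dim throughout, had a high array in vehicle at 168 h (5.65), at 10 mg/kg at 6 h (3.60) and 336 h (5.82) and at 80 mg/kg at 24 h (5.03). Thbs2 read 7.18 in 1 array of 80 mg/kg at 336 h, against 6.82 to 6.90 in the others. Postn read 8.23 in 1 high-Myl7 array of 80 mg/kg at 24 h, and the first Sparc probe set, 1367562_at, read 9.76 in the high-Myl7 array of vehicle at 6 h.

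The Ccn2 difference from vehicle had opposite signs at different times, with every treated array on the stated side of its vehicle mean. At 80 mg/kg the 6 and 336 h differences, −0.64 and 0.98, lay 1.62 apart, and the 6 and 168 h differences, −0.64 and 0.35, lay 0.99 apart. At 10 mg/kg the 6 and 336 h differences, −0.37 and 0.48, lay 0.85 apart. These differences between times were not tested, because the members were chosen on them.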

How the results depend on the processing

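Under every alternative run, 0 member probe sets were called in each of the 11 tested contrasts; the lowest adjusted p of any was 0.0677, for Thbs2 at 80 mg/kg at 24 h with median scaling. The Ccn2 difference for 80 mg/kg at 6 h was −0.25 on the deposited scale, where all tested probe sets shifted by 0.37, and from −0.76 to −0.52 in the other alternatives; leaving out 1 array gave −0.76 to −0.52. At 336 h it ran from 0.94 to 1.05, and from 0.86 to 1.10 with 1 array left out. With the replicate block it was −0.68 and 0.94, and no member's call changed. Of 1092 untested values recomputed, 16 moved by more than the spread between replicates, among them Postn and Sparc (1367562_at) at 6 h without the high-Myl7 arrays. Leaving out the 10 arrays of Myl7 above 9 or the 3 of highest actin 3′ minus 5′ difference was chosen after seeing the data. The stricter filter leaves out Ccn1 and Thbs4, which have no value there. Ccn1, Thbs4, Spp1 and Tnc lie near or under the level at which signals scatter widely.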
